A study of Mus musculus with 8 samples.

Results

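The collagen genes of the mouse were followed in skin tumour cells with a gain or a loss of the nuclear receptor NR2F2. A gene was counted as a collagen when its single symbol in the platform annotation had the form Col, a number, a, a number. Col17a1, the hemidesmosomal collagen of keratinocytes, was left out. This gave 41 genes of the 17097 with a probe set of their own, 11 fibrillar, 9 of the basement membrane and its zone, and 21 others. Each gene was read from its brightest probe set, a group of perfect-match probes on an Affymetrix array.

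Collagens are secreted proteins whose 3 chains wind into a triple helix. Fibrillar collagens assemble into the fibres that give dermis and tumour stroma their strength. Basement membrane collagens form the sheet on which epithelial and endothelial cells rest, and anchor it to the matrix beneath. Fibroblasts make most fibrillar and type VI collagen of skin, whereas keratinocytes make several of the collagens at the epidermal junction.

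The RNA came from tumour cells sorted by flow cytometry on Epcam, an epithelial surface protein, and was read on 8 arrays in 4 groups of 2. Control papillomas carried wild-type NR2F2, and gain-of-function (GOF) papillomas overexpressed it. A papilloma is a benign outgrowth of the epidermis, and the carcinomas here are malignant squamous tumours of the skin. Control carcinomas lacked Cre and are labelled NR2F2 wild type, and knockout (KO) carcinomas were K5CreER;NR2F2fl/fl, in which the keratin 5 promoter drives the recombinase. How NR2F2 was overexpressed is not given in the sources used here, nor is it said whether arrays that share a label stem from different mice. The p-values therefore measure only the spread between these arrays, which may be technical.

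The deposited values are log2 expression. Papilloma and carcinoma arrays were on different scales (array medians 3.12 to 3.16 and 5.08 to 5.15), so no level was compared between the tumour types. Background on an array was the highest of 44 probe sets for non-mouse sequences, 3.09 to 3.33 in papilloma and 4.95 to 5.01 in carcinoma. The arrays of a group correlated at 0.980 to 0.991 over all probe sets. Nr2f2 followed the labels. Its control papilloma arrays (2.80 and 2.55) were below background, and it was at least 321-fold higher in GOF (11.43 and 11.47; fitted difference 8.78, limma adjusted p = 3.75e-06). In carcinoma it stood at 7.93 and 8.14 in control and 4.77 and 4.996 in KO, where replicate 1 was below background (fitted difference -3.15, adjusted p = 0.00436). That call was lost without either GOF array, control carcinoma replicate 2 or either KO array (adjusted p from 0.0535 to 0.0765) and on the 4 carcinoma arrays alone (0.246). The keratinocyte markers Epcam, Krt5, Krt14, Cdh1 and Trp63 were above background on all 8 arrays, and their mean ran from 10.21 to 10.75 in papilloma and from 11.27 to 11.49 in carcinoma. Epcam itself fell in GOF, by 1.53 (SE 0.23, adjusted p = 0.0343), a call lost without any one of the 4 papilloma arrays or either KO array (adjusted p from 0.0564 to 0.215).

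RefSeq promoter windows (build GRCm38.p6) were found for 32 of the 41 genes, 35 windows in all. The 250 bases before the annotated start are printed for Col13a1 (chr10:61979109-61979358, minus strand), the collagen that rose with NR2F2, and for Col4a5 (chrX:141475169-141475418, plus strand), the one that fell. Col4a6 (chrX:141474077-141474326, minus strand) is shown because it lies head to head with Col4a5, their starts 1343 bases apart. Capitals mark matches, on either strand, to the TATA box TATAAA, the CCAAT box and the GC box GGGCGG. Read from the other strand, the GC box appears as CCGCCC.
Col13a1: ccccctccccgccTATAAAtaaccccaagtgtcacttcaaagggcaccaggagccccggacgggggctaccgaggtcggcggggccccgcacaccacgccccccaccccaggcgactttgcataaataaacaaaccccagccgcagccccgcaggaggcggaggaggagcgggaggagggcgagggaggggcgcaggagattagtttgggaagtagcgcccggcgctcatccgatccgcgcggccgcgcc
Col4a5: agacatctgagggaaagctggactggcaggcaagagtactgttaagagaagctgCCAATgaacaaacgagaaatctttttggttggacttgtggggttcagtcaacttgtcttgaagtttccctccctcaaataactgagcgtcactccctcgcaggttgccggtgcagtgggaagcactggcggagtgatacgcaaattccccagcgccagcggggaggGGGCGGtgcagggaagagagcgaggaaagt
Col4a6: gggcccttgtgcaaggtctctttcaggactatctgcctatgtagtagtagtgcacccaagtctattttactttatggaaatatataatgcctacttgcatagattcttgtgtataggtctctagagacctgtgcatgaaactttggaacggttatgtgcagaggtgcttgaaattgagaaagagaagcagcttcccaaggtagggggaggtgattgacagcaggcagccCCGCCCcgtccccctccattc
The Col13a1 window held a TATA box, the Col4a5 window a CCAAT box and a GC box, and the Col4a6 window a GC box on the other strand. Col4a1 and Col4a2 are also transcribed from opposite strands, with annotated starts 21 bases apart. The 22 bases from the start of Col4a2 to that of Col4a1 (chr8:11312805-11312826, plus strand) are as follows.
Col4a1 and Col4a2 starts: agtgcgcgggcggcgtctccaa

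Over the collagen windows, the GC box was found in 21 of 35, against 32.74% of all 32851 windows in the table. The TATA box was in 4 (11.43%, against 12.37%) and the CCAAT box in 12 (34.29%, against 33.85%). The nuclear receptor half-site AGGTCA was in 8 (22.86%, against 14.02%). These belong to Col4a4, Col6a5, Col7a1, Col9a1, Col11a1, Col20a1, Col23a1 and Col24a1. No half-site was found in the windows of Col13a1, Col4a5, Col4a6, Col4a1, Col4a2 or Col15a1. None of the collagen windows held 2 such half-sites as a direct repeat with 1 base between them, which 11 windows of the table held (0.03%). Both strands were searched, the repeat contains the half-site but no other motif contains another, and a match is only a match of letters.

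Of the 41 collagens, 29 passed a filter on low values (at least 2 of the 4 arrays of a tumour type above the median of that type) and were tested with the other genes, 11874 in all. These were 8 fibrillar, 7 basement membrane and 14 other collagens. The other 12 were not tested: Col1a2, Col11a2 and Col24a1 of the fibrillar class, Col4a3 and Col4a4 of the basement membrane class, and Col6a5, Col8a2, Col9a1, Col9a2, Col10a1, Col19a1 and Col22a1. Of these 12, 9 were below background on all 8 arrays. Col1a2 encodes the partner chain of Col1a1 in type I collagen. Its only single-gene probe set read 2.79 to 3.03 in papilloma and 3.88 to 4.15 in carcinoma, below background throughout, so nothing is said of Col1a2 here. At the other end, 17 collagens were above background on all 8 arrays, among them Col1a1, Col3a1, Col4a1, Col6a1, Col7a1 and Col18a1.

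With NR2F2 overexpressed in papilloma, 1 collagen rose and 1 fell. Col13a1, a transmembrane collagen found at cell contacts, was 3.57-fold higher, and Col4a5, a type IV chain of the epidermal basement membrane, was at least 1.43-fold lower. These 2 of 29 tested collagens compare with 1.55% of all tested genes past the threshold (limma with Benjamini-Hochberg adjustment over all genes, adjusted p under 0.05), 0.977% higher and 0.573% lower. Col4a5 passed the filter only through the control arrays, where it was high. With the filter set on the median of all 8 arrays it was not tested. At an unadjusted p under 0.05 there were 9 collagens, against 18.1% of all genes. In such bulk samples fewer cells of a type and less RNA per cell cannot be told apart.

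Col13a1, read by its only probe set, stood at 3.97 and 3.52 on control papilloma replicates 1 and 2, and at 5.45 and 5.72 on GOF replicates 1 and 2. Both GOF arrays lay above both controls, and all 4 were above background. The means were 3.75 ± 0.31 (SD, n = 2) and 5.58 ± 0.19, a difference of 1.84 log2 units (limma SE 0.19, adjusted p = 0.0144). The GOF mean was 1.62 above control replicate 1 and 2.06 above control replicate 2. The call was lost without control replicate 2 (adjusted p = 0.0546), GOF replicate 1 (0.125) or GOF replicate 2 (0.173), and the fold change stayed between 1.62 and 2.06 without any one of the 8 arrays.

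Col4a5 stood at 3.56 and 3.94 in the controls and at 2.54 and 2.50 in GOF. The controls were above background and the GOF arrays below it. The log2 fold change was -1.23 (SE 0.18, adjusted p = 0.0344), and the difference from each control was -1.04 and -1.42. Its second probe set was below background on all 4 papilloma arrays (3.06 and 2.92 in control, 2.71 and 2.65 in GOF). Col4a5 passed the filter through its control arrays alone, and it was also past the threshold with no filter. The call was lost on the 4 papilloma arrays alone (adjusted p = 0.0579), without either GOF array (0.232 and 0.215) or without either KO array (0.0579 and 0.0585), and without either control papilloma array it was not tested.

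**Figure D1:**
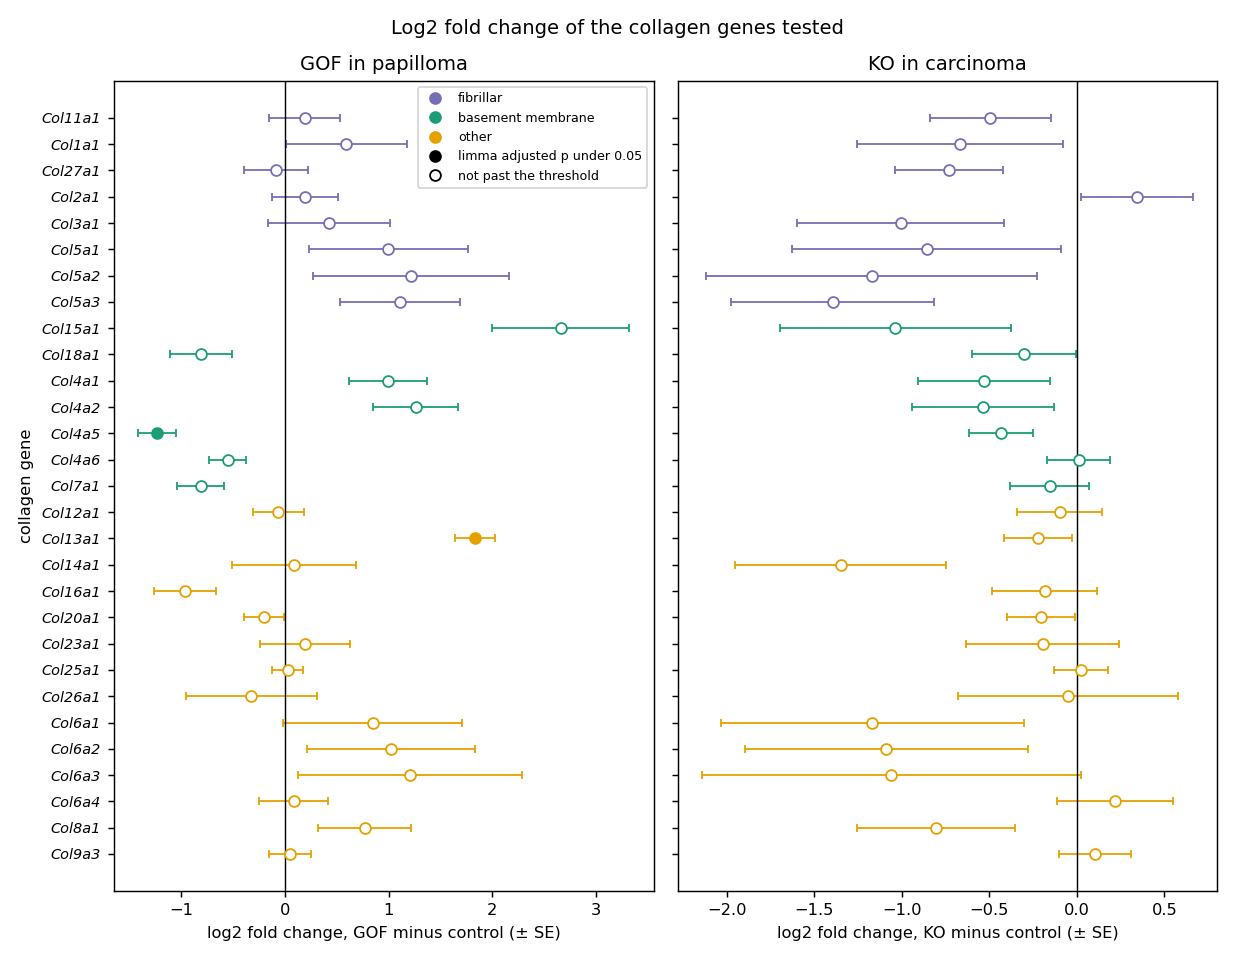
Log2 fold change (± SE of the limma fit) of the 29 tested collagens for GOF minus control in papilloma (left) and KO minus control in carcinoma (right), coloured by class, with filled points for an adjusted p under 0.05. Col13a1 (1.84) and Col4a5 (-1.23) in GOF are the 2 filled points, and in KO 24 of the 29 lie below 0.

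The basement membrane class split in papilloma. Of its 7 tested members, Col15a1, Col4a1 and Col4a2 were higher in GOF and Col4a5, Col4a6, Col7a1 and Col18a1 were lower, and in each of them the 2 GOF arrays lay on 1 side of both controls. Without such overlap 7 of the 29 collagens were higher (29.5% of all genes) and 5 lower (21.9%). Of the lower ones, Col4a5 and Col4a6 passed the filter through their control arrays alone. Under a stricter description, at least 1.5-fold in all 4 array pairs, 4 collagens were higher (Col4a1, Col4a2, Col13a1 and Col15a1, against 4.63% of all genes) and Col4a5 was lower (2.6% of all genes). Both GOF values of Col4a5 were below background, and it met this rule only through them, since its fold is known only as at least 1.43. The class median was -0.55, the value of Col4a6, against 0.037 over all genes tested. With 3 members above 0 and 4 below, it describes neither group.

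Col4a1 and Col4a2 encode the 2 chains of the common type IV network. Col4a1 stood at 8.41 and 8.28 in control and 9.27 and 9.42 in GOF, a log2 fold change of 1.00 (SE 0.38, adjusted p = 0.229). Col4a2 stood at 6.83 and 6.01 in control and 7.55 and 7.82 in GOF, a log2 fold change of 1.26 (SE 0.41, adjusted p = 0.174). Both genes were higher on both GOF arrays than on either control. Against control replicate 1 the differences were 0.93 and 0.85, so they did not rest on control replicate 2 alone. The second probe set of Col4a1 gave 0.96.

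Col15a1, a proteoglycan collagen next to vascular and other basement membranes, had the highest fold change of the tested collagens in GOF. Its arrays read 5.12 and 3.31 in control and 6.62 and 7.14 in GOF. Control replicate 2 was close to background (3.09), and the 2 controls differed by more than the 2 GOF arrays did. The log2 fold change was 2.66 (SE 0.66, adjusted p = 0.103), or 6.33-fold, and the GOF mean was 1.76 above control replicate 1 and 3.57 above control replicate 2.

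Of the lower members, Col7a1 forms the anchoring fibrils below the epidermis and stood at 8.41 and 8.14 in control and 7.71 and 7.21 in GOF (log2 fold change -0.82, SE 0.22, adjusted p = 0.125). Col18a1, the precursor of endostatin, stood at 8.51 and 7.93 against 7.48 and 7.34 (-0.81, SE 0.30, adjusted p = 0.221), and its second probe set gave -0.86. Col4a6, the usual partner of Col4a5, stood at 3.39 and 3.73 against 2.99 and 3.03 (-0.55, SE 0.18, adjusted p = 0.174), at background in GOF. Like Col4a5, it passed the filter through the control arrays alone. Outside this class Col16a1 was lower without overlap, one of the collagens that sit on fibrils and at the dermal junction, at 6.65 and 5.96 against 5.39 and 5.29 (-0.96, SE 0.30, adjusted p = 0.161). None of these 4 passed the threshold.

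**Figure D2:**
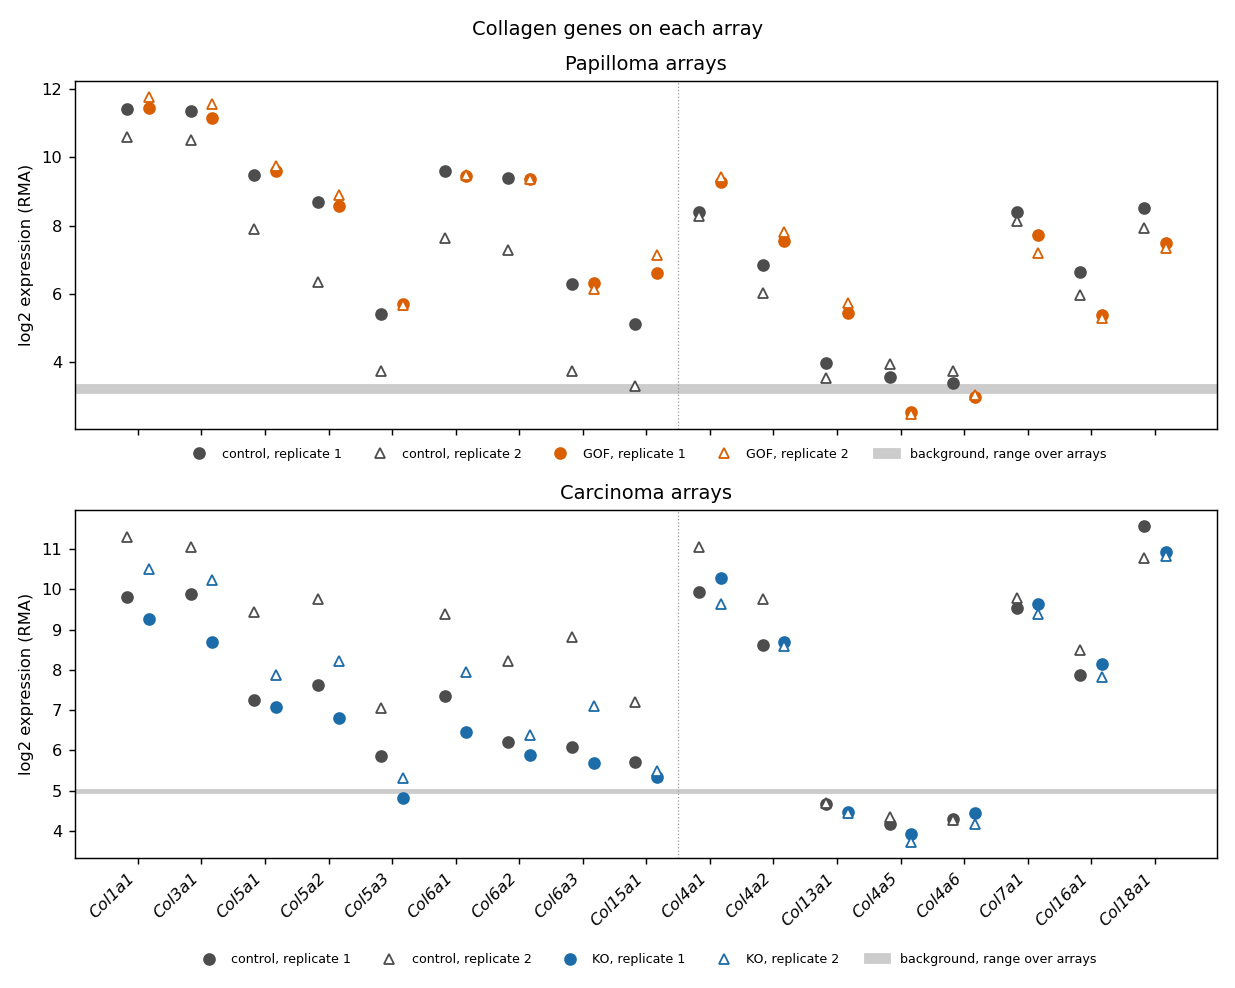
Log2 expression of 17 collagens on each papilloma array (upper) and carcinoma array (lower), circles for replicate 1 and triangles for replicate 2, with the range of background over arrays as a grey band. Left of the dotted line, control papilloma replicate 2 (open grey triangles) lies below the other 3 papilloma arrays and control carcinoma replicate 2 lies above the other 3 carcinoma arrays. To the right, Col4a1, Col4a2 and Col13a1 lie higher in GOF than in either control.

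The fibrillar and type VI collagens gave no call in papilloma, and their controls disagreed. Col1a1, the main chain of type I collagen, stood at 11.42 and 10.59 in control and 11.43 and 11.77 in GOF (0.59, SE 0.59, adjusted p = 0.670). Col3a1, of the thinner fibres that accompany type I, stood at 11.34 and 10.52 against 11.16 and 11.56 (0.42, SE 0.59, adjusted p = 0.784). For both, control replicate 2 was the lowest of the 4 arrays, and the GOF mean stood 0.18 and 0.013 above control replicate 1.

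The type V chains, which set fibril width, showed the same order of arrays. Col5a1 read 9.48 and 7.89 in control and 9.61 and 9.76 in GOF (1.00, SE 0.77, adjusted p = 0.562). Col5a2 read 8.68 and 6.35 against 8.58 and 8.88 (1.22, SE 0.95, adjusted p = 0.566). Col5a3 read 5.40 and 3.75 against 5.69 and 5.68 (1.11, SE 0.58, adjusted p = 0.369). In all 3 the low array was control replicate 2, and the GOF mean stood only 0.20, 0.053 and 0.28 above control replicate 1, but 1.79, 2.38 and 1.93 above control replicate 2.

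Type VI collagen forms beaded filaments around cells. Col6a1 read 9.59 and 7.64 in control and 9.44 and 9.49 in GOF (0.85, SE 0.86, adjusted p = 0.682). Col6a2 read 9.40 and 7.28 against 9.36 and 9.37 (1.02, SE 0.81, adjusted p = 0.573). Col6a3 read 6.29 and 3.74 against 6.31 and 6.13 (1.21, SE 1.08, adjusted p = 0.629). Here too control replicate 2 alone was low. The GOF mean was 1.82, 2.08 and 2.48 above control replicate 2, and the difference from control replicate 1 was -0.13, -0.033 and -0.068.

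Between the 2 control papilloma arrays, 9 of the 29 collagens were more than 1 log2 unit lower on replicate 2, or 31% of them against 2.45% of all genes tested, and none was more than 1 higher. They were Col5a1, Col5a2, Col5a3, Col6a1, Col6a2, Col6a3, Col8a1, Col15a1 and Col26a1. Between the 2 GOF arrays, no collagen differed by more than 1. The fibrillar median of the GOF mean minus control was 0.10 with replicate 1 as control and 0.92 with replicate 2, and 0.51 in the fit with both (0.037 over all genes). For the other collagens these medians were 0.011, 0.16 and 0.085.

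The fibril-associated Col12a1 and Col14a1 differed little in GOF. Col12a1 read 4.97 and 4.56 in control and 4.48 and 4.92 in GOF (-0.065, SE 0.24, adjusted p = 0.937). Col14a1 read 3.29 and 3.23 against 3.05 and 3.64 (0.087, SE 0.60, adjusted p = 0.967), close to background. The groups overlapped in both. The remaining tested collagens ran from -0.32 (Col26a1) to 0.77 (Col8a1, a short-chain collagen of vessels and other matrices) in GOF, and none passed the threshold. Over the 29 tested collagens 20 fold changes were positive and 9 negative in GOF, beside 54.9% positive over all genes, with a median of 0.19.

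**Figure D3:**
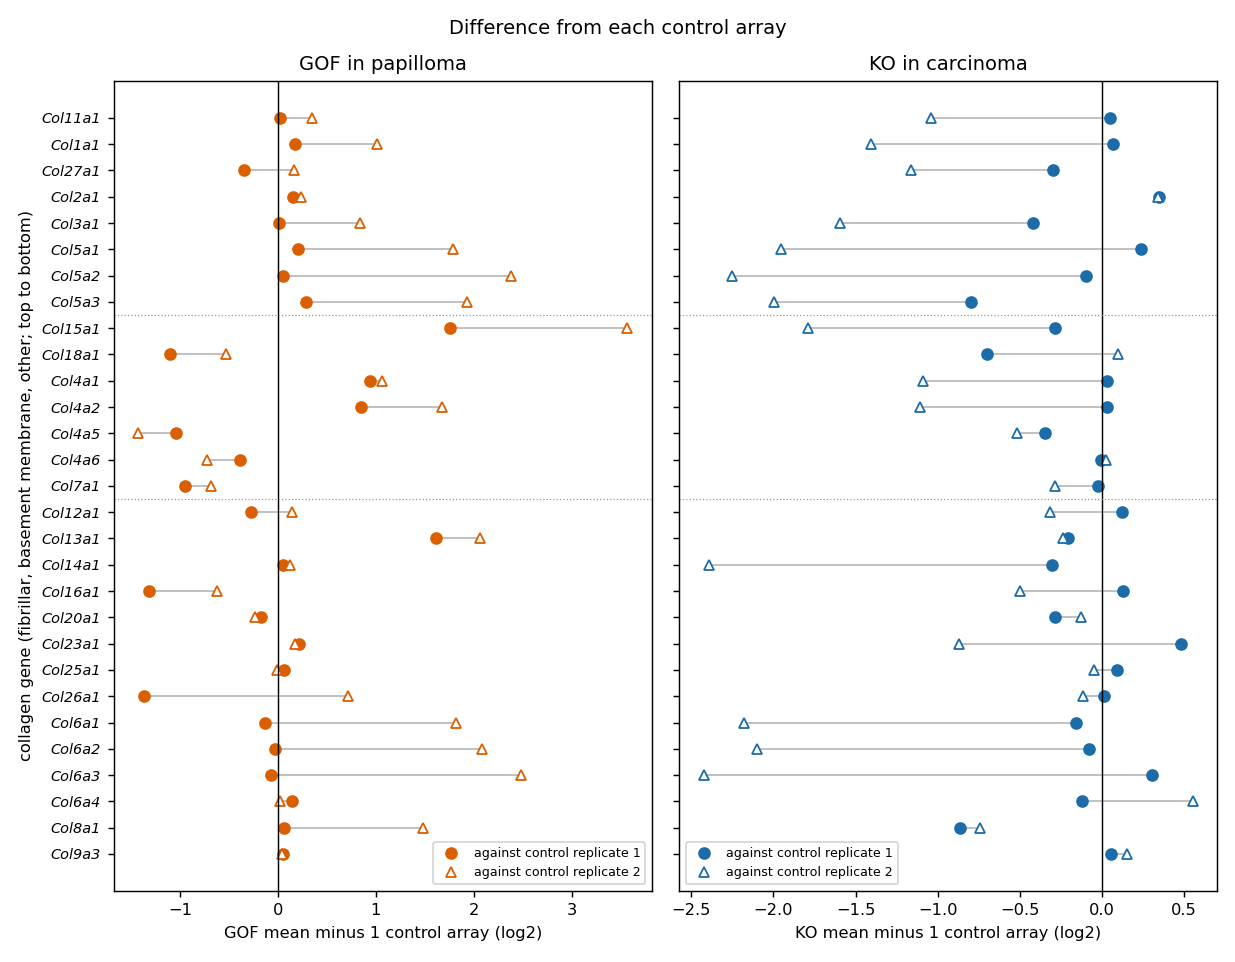
For each tested collagen, the GOF mean (left) or KO mean (right) minus each single control array, on a log2 scale, circles for control replicate 1 and triangles for control replicate 2. Long grey lines join the 2 values of Col5a1 to Col5a3, Col6a1 to Col6a3 and Col15a1 in both tumour types, whereas Col13a1 and Col4a1 have short ones in papilloma (1.62 and 2.06, and 0.93 and 1.06).

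With Nr2f2 removed in carcinoma, none of the 29 tested collagens passed the threshold (limma adjusted p from 0.340 to 0.990), beside 0.0168% of all genes, 2 in number. At an unadjusted p under 0.05 there was 1 collagen, Col5a3, against 14.4% of all genes. The fold changes were negative for 24 of the 29 and positive for 5 (48% of all genes were negative), with a median of -0.49 against 0.014 over all genes. Against control replicate 1 alone 16 were negative and 13 positive, and against control replicate 2 alone 24 and 5. Of the negative ones, Col4a5, Col13a1, Col20a1 and Col26a1 were at or below background in both groups. The medians were -0.79 for the 8 fibrillar, -0.43 for the 7 basement membrane and -0.20 for the 14 other collagens. No collagen was higher in KO without overlap (25.5% of all genes), and 8 were lower (19% of all genes). Of these 8, Col4a5, Col13a1 and Col20a1 were at or below background in both groups. The others were Col5a3, Col8a1, Col14a1, Col15a1 and Col27a1. By the 1.5-fold rule in all 4 array pairs none was higher (1.67% of all genes) or lower (1.71%).

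Type I and type III collagen spread widely over the 4 carcinoma arrays. Col1a1 stood at 9.82 and 11.29 on control carcinoma replicates 1 and 2 and at 9.26 and 10.51 on KO replicates 1 and 2 (-0.67, SE 0.59, adjusted p = 0.666). Col3a1 stood at 9.88 and 11.06 against 8.69 and 10.23 (-1.01, SE 0.59, adjusted p = 0.490). In both genes the groups overlapped and replicate 2 was the higher array of each group. Against control replicate 1 the differences were 0.070 and -0.42, and against control replicate 2 they were -1.40 and -1.60.

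Among the type V chains, Col5a3 had the lowest fold change of the tested collagens. It read 5.85 and 7.06 in control and 4.82 and 5.30 in KO (-1.40, SE 0.58, adjusted p = 0.340), or 2.63-fold lower, without overlap and with KO replicate 1 below background. Col5a1 read 7.24 and 9.43 against 7.08 and 7.88 (-0.86, SE 0.77, adjusted p = 0.674). Col5a2 read 7.61 and 9.77 against 6.81 and 8.23 (-1.17, SE 0.95, adjusted p = 0.633). Of the 3, Col5a1 was 0.24 higher in KO than control replicate 1, and Col5a2 and Col5a3 were lower than it by 0.095 and 0.79. Against control replicate 2 all 3 were lower, by 1.95, 2.25 and 2.00.

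The type VI chains followed the same order of arrays. Col6a1 read 7.36 and 9.38 in control and 6.46 and 7.95 in KO (-1.17, SE 0.86, adjusted p = 0.593). Col6a2 read 6.21 and 8.23 against 5.87 and 6.38 (-1.09, SE 0.81, adjusted p = 0.594). Col6a3 read 6.08 and 8.81 against 5.68 and 7.09 (-1.06, SE 1.08, adjusted p = 0.726). Control replicate 2 was the highest array in each, and control replicate 1 lay between the 2 KO arrays. The difference from control replicate 1 was -0.16, -0.080 and 0.31.

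In the basement membrane class, Col15a1 read 5.70 and 7.21 in control and 5.35 and 5.49 in KO, lower without overlap (-1.04, SE 0.66, adjusted p = 0.527). Col4a1 read 9.93 and 11.05 against 10.29 and 9.64 (-0.53, SE 0.38, adjusted p = 0.574), and Col4a2 read 8.62 and 9.75 against 8.70 and 8.59 (-0.54, SE 0.41, adjusted p = 0.602). For both type IV chains control replicate 2 was the highest array, and the difference from control replicate 1 was 0.031. Col18a1 ran the other way, with control replicate 1 the highest array, at 11.58 and 10.79 against 10.93 and 10.83 (-0.30, SE 0.30, adjusted p = 0.714). Col7a1 overlapped between the groups, at 9.53 and 9.79 against 9.63 and 9.38 (-0.15, SE 0.22, adjusted p = 0.827). Col4a5 and Col4a6 were below background on all 4 carcinoma arrays.

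Of the other class, Col14a1, which sits on the surface of fibrils, read 4.56 and 6.64 in control and 4.11 and 4.39 in KO. Only control replicate 2 was above background. The log2 fold change was -1.35 (SE 0.60, adjusted p = 0.370), at least 1.54-fold lower. Without control replicate 1 it was -2.39 and passed the threshold (adjusted p = 0.0343), and without control replicate 2 it was -0.30. Col12a1 read 5.66 and 6.10 against 5.70 and 5.87 (-0.098, SE 0.24, adjusted p = 0.916), and Col16a1 read 7.86 and 8.49 against 8.15 and 7.83 (-0.18, SE 0.30, adjusted p = 0.855). Both overlapped between groups. The remaining tested collagens ran from -0.80 (Col8a1) to 0.34 (Col2a1, the cartilage collagen).

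Between the 2 control carcinoma arrays, 14 of the 29 collagens were more than 1 log2 unit higher on replicate 2, or 48.3% of them against 4.86% of all genes, and none was more than 1 lower. These were Col1a1, Col3a1, Col4a1, Col4a2, Col5a1, Col5a2, Col5a3, Col6a1, Col6a2, Col6a3, Col11a1, Col14a1, Col15a1 and Col23a1. Between the 2 KO arrays, 5 were more than 1 higher on replicate 2 (Col1a1, Col3a1, Col5a2, Col6a1 and Col6a3), or 17.2% against 1.94% of all genes. Taking the KO mean against control replicate 1, the median of the 29 was -0.025 and no collagen differed by more than 1, and against control replicate 2 it was -0.87 and 14 did. For the fibrillar class these medians were -0.022 and -1.50.

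In 7 collagens, Col5a1, Col5a2, Col5a3, Col6a1, Col6a2, Col6a3 and Col15a1, the control arrays differed by more than 1 in both tumour types, in opposite directions: replicate 2 was the lower control in papilloma and the higher in carcinoma. The test of the GOF effect minus the KO effect, which uses both pairs of controls, put 1 collagen past the threshold, beside 0.345% of all genes. This was Col13a1, with a difference of 2.06 (SE 0.27, limma adjusted p = 0.0468). Col13a1 was below background on all 4 carcinoma arrays (4.66 and 4.69 in control, 4.46 and 4.45 in KO), so no KO effect on Col13a1 was measurable (fitted -0.22, SE 0.19) and the difference rests on its values in papilloma. Leaving out control papilloma replicate 2, either GOF array, control carcinoma replicate 2 or either KO array ended this call (adjusted p from 0.0769 to 0.244). Col15a1 had the highest difference, 3.70 (SE 0.94), with an adjusted p of 0.153. The difference was 1.53 (SE 0.53, adjusted p = 0.263) for Col4a1 and 1.80 (SE 0.58, adjusted p = 0.234) for Col4a2.

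Several lists of cell type markers followed the order of arrays seen in the collagens. Of 12 fibroblast markers, 9 were tested and none passed the limma threshold in either comparison. At an unadjusted limma p under 0.05 there was 1 in each, against 18.1% of all genes in GOF and 14.4% in KO. Without overlap, 8 of the 9 were higher in GOF (29.5% of all genes), and 5 were lower in KO (19% of all genes). Of these 8, Pdgfra passed the filter through its GOF arrays alone, and it is the 1 marker at an unadjusted p under 0.05 in GOF. Fap, Fbln2 and Pi16 were below background on all 8 arrays, and Pdgfra was above it on 1. The mean of the 9, with Dcn, Lum and Dpt among them, was 6.23 and 4.92 on the control papilloma arrays and 6.51 and 6.69 on the GOF arrays. In carcinoma it was 5.79 and 7.11 in control and 5.27 and 5.74 in KO. These carcinoma means include values below background: Dpt and Lum were above it on control replicate 2 alone, and Pdgfra on no carcinoma array. The array that was low for fibrillar and type VI collagens in papilloma, and the one that was high in carcinoma, were thus also the low and the high array for the fibroblast list, and the part of fibroblasts in those results was not tested.

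Some endothelial and macrophage markers rose in GOF. Of 8 endothelial markers, Cdh5, Emcn, Plvap and Egfl7 rose (limma adjusted p from 0.0234 to 0.0392), against 0.977% of all genes. All 8 were higher without overlap (29.5% of all genes), with a list mean of 3.47 and 3.27 in control and 5.42 and 5.62 in GOF. Of the 8, Cldn5 passed the filter through its GOF arrays alone (2.92 and 2.84 in control, 3.69 and 4.15 in GOF). In KO no endothelial marker passed the limma threshold (1 at an unadjusted p under 0.05, against 14.4% of all genes). The endothelial mean was 5.16 and 6.09 in control and 5.06 and 5.13 in KO. Of 8 macrophage markers Lyz2 and C1qc rose in GOF (limma adjusted p = 0.00992 and 0.0308). Without overlap 7 were higher, and Csf1r was not (3.47 and 3.62 in control, 3.75 and 3.50 in GOF). These endothelial and macrophage calls were not followed gene by gene with single arrays left out. The macrophage mean was 3.27 and 3.17 in control and 5.61 and 6.57 in GOF, then 5.37 and 6.78 in control and 5.14 and 5.43 in KO carcinoma, where none passed (1 unadjusted). Of 7 pericyte markers 3 were tested and none passed (1 unadjusted in GOF, 0 in KO), and Rgs5 had a log2 fold change of 4.60 (SE 0.83, adjusted p = 0.0531) in GOF. The endothelial and macrophage means and Rgs5 were higher on both GOF arrays than on either control, as were Col4a1, Col4a2, Col13a1 and Col15a1. The other 2 pericyte markers moved less: Pdgfrb read 5.37 and 4.61 in control and 5.62 and 5.95 in GOF, and Notch3 overlapped (8.68 and 7.88 against 8.48 and 8.55). For the fibroblast list, control replicate 1 (6.23) was nearer to the GOF arrays (6.51 and 6.69) than to control replicate 2 (4.92). The part of these cell types in the values of those 4 collagens was not tested. Beside the lower values of Col4a5, Col4a6, Col7a1, Col16a1 and Col18a1, 1 of the 5 keratinocyte markers fell in GOF, Epcam, against 0.573% of all genes. The others stood at 0.031 (Krt5), 0.014 (Krt14), -0.22 (Cdh1) and -0.37 (Trp63), and the list mean was 10.59 and 10.75 in control and 10.30 and 10.21 in GOF. The part of keratinocyte content was not tested.

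**Figure D4:**
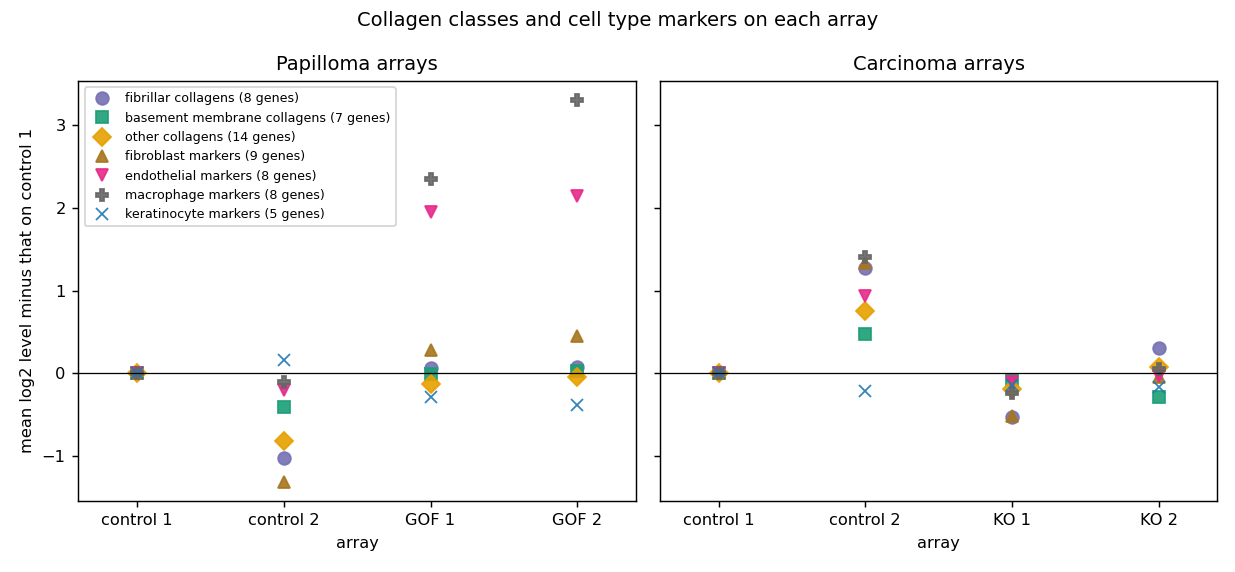
Mean log2 level of each collagen class and marker list on each array minus its level on control replicate 1 of the same tumour type. In papilloma the fibrillar class (7.12 and 6.10 in control, 7.18 and 7.19 in GOF) and the fibroblast list are low on control replicate 2, and the endothelial and macrophage lists are high on both GOF arrays. In carcinoma the fibrillar class (6.94 and 8.21 in control, 6.41 and 7.24 in KO) and all 3 of these lists are highest on control replicate 2.

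Of 30 genes for collagen synthesis, processing and cross-linking, 24 were tested, and none passed the threshold in either direction in GOF or in KO. At an unadjusted limma p under 0.05 there were 4 in GOF and 3 in KO, against 18.1% and 14.4% of all genes. Pcolce2, an enhancer of procollagen cleavage, stood at 3.25 and 3.10 in control and 4.94 and 4.98 in GOF (1.78, SE 0.34, adjusted p = 0.0570). It passed the threshold with the stricter filter (adjusted p = 0.0490), the trended and robust prior (0.0461), the 4 papilloma arrays alone (0.0203) and without control carcinoma replicate 1 or 2 (0.00929 and 0.00950). The cross-linking oxidases Loxl1 (5.17 and 3.74 against 5.64 and 5.94; 1.33, SE 0.62, adjusted p = 0.319) and Lox (5.14 and 3.78 against 4.66 and 6.44; 1.09, SE 0.97, adjusted p = 0.624) came next. The value of Lox was 1.98 without GOF replicate 1 and 0.20 without GOF replicate 2, and that of Loxl1 was 2.04 without control replicate 1 and 0.62 without control replicate 2. Control replicate 2 was the lowest array in both oxidases, as in the fibrillar collagens, whereas both Pcolce2 controls lay near background. In KO the largest fitted differences were those of the procollagen protease Tll1, which stood at 7.03 and 6.21 in control and 4.87 and 4.02 in KO (fitted -2.17, adjusted p = 0.127), of Loxl3 (6.34 and 7.72 against 5.28 and 5.38; -1.70, SE 0.51, adjusted p = 0.232) and of Lox (5.62 and 8.14 against 5.06 and 6.20; -1.26, SE 0.97, adjusted p = 0.609). Both KO arrays of Tll1 were below background, so that it was at least 3.12-fold lower and its order against Loxl3 is not known. Tll1 and Loxl3 were lower on both KO arrays than on either control. The list median was 0.25 in GOF and -0.16 in KO.

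Of 10 collagen receptors, 5 were tested and none passed in either comparison. At an unadjusted limma p under 0.05 there were 3 in GOF and 0 in KO, against 18.1% and 14.4% of all genes. In GOF, Itga2, the integrin chain that binds fibrillar collagen on keratinocytes, stood at 4.59 and 6.10 in control and 3.59 and 4.08 in GOF (-1.51, SE 0.47, adjusted p = 0.159). The endocytic receptor Mrc2 (0.98, SE 0.53, adjusted p = 0.386) and the discoidin domain receptor Ddr1 (-0.63, SE 0.22, adjusted p = 0.204) came next. In KO the largest were Mrc2 (-0.72, SE 0.53, adjusted p = 0.590), Ddr2 (fitted -0.50, adjusted p = 0.510, at least 1.14-fold lower with both KO arrays below background) and Ddr1 (-0.40, SE 0.22, adjusted p = 0.470). The list median was -0.61 in GOF and -0.40 in KO. Without control papilloma replicate 1 the fold change of Itga2 was -2.27 and passed the threshold (adjusted p = 0.0472), and without control papilloma replicate 2 it was -0.76 (adjusted p = 0.556).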

How the data were processed

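RNA was read on 8 Affymetrix mouse strip arrays with perfect-match probes, 2 in each of 4 groups taken from the sample titles. The authors deposited log2 values made with RMA, and the submitters' processing notes also name affy, both without versions. The papilloma and carcinoma columns carry 5 and 4 decimals and different medians, and were treated as normalized separately. Of 45141 probe sets, 28898 had 1 gene symbol, 551 several and 15588 none, with 104 Affymetrix controls.

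Probe sets entered the test if 2 or more of the 4 arrays of a tumour type exceeded that type's median (3.14 in papilloma, 5.11 in carcinoma), and the brightest stood for its gene (11874 genes). The linear models (lmFit, eBayes) were fitted in limma 3.58.1 under R 4.3.3 (4 group means, 4 residual and 2.93 prior degrees of freedom) and adjusted by Benjamini-Hochberg over all genes at 0.05. SE is that of the fit. An exact permutation test of 2 against 2 arrays cannot go below 0.333. The number of arrays limits the precision. The fits were tested on simulated data. A fold is "at least" where the dimmer group lay at or below background: each dim array then counts at the higher of its background and its own value.

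Members and lists were chosen with earlier results of these data known. Array values are given for tested members past the threshold or at an absolute log2 fold change of 1 or more, and for a fixed set of well-known collagens. Of each pathway list the 3 with the largest fold change are named. Alternatives were other filters, scalings, probe set rules, variance priors, array subsets and a replicate block. Probe sequences were not used here.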

Additional observations from a re-analysis of the deposited data

Results flagged for a closer look

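Col13a1 passed a test of the difference between the comparisons, with its fitted GOF value in papilloma 2.06 above its fitted KO value in carcinoma on the log2 scale (SE 0.27, limma adjusted p = 0.0468). It was higher on 2 of 2 GOF arrays than on either control. It was below background on all 4 carcinoma arrays, where no KO effect was measurable, so the difference mostly restates the GOF value. The call ended with the filter set on the median of all 8 arrays (adjusted p = 0.0545), with no filter (0.0647) and with quantile normalization over all 8 arrays (0.0821). Groups of 2 arrays were not tested for single arrays that stand apart.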

How the results depend on the processing

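The 2 arrays of a group and levels near background limit these results. With the filter set on the median of all 8 arrays, 1 collagen was past the threshold in GOF and 0 by the pair rule as lower (Col4a5 was then not tested), 0 collagens and 11 genes were past it for the difference of effects, and the basement membrane median in GOF was -0.13. With no filter the counts were 115 genes in GOF, and 0 collagens and 11 genes for the difference, with a median of -0.13, and with the stricter filter that median was 0.094. Each of these medians covers only the class members that its filter kept. Quantile normalization gave 2 collagens lower by the pair rule in GOF and 1 in KO, and 0 collagens and 11 genes for the difference. Without probe sets marked _s_at, _x_at or _a_at, 5 genes were called in KO. The trended and robust prior gave 23 genes in KO and 68 for the difference. Fitting a tumour type alone gave 1 collagen in GOF and 0 genes in KO. Median centring turned Pcolce2 in KO to 0.024. Over all genes, the deviations of same-numbered arrays correlated at -0.004 in papilloma and 0.12 in carcinoma. This cannot show whether arrays were paired, since a subset of genes may differ. In carcinoma all 8 fibrillar collagens were higher on replicate 2 in both control and KO. In papilloma 0 of the 8 were in control and 4 in GOF. With the replicate block 0 collagens and 37 genes were called in GOF, 0 genes in KO, and 0 collagens and 3 genes for the difference.

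Leaving out each array in turn gave 0 to 2 collagens and 2 to 317 genes in GOF, 0 to 1 and 0 to 85 in KO, and 0 to 2 and 1 to 274 for the difference. A lone array was assumed to vary like the other groups. By the pair rule 4 to 13 collagens were higher and 0 to 4 lower in GOF, and 0 to 1 higher and 0 to 15 lower in KO. Class medians in GOF ran from 0.10 to 1.01 (fibrillar), -0.56 to 1.06 (basement membrane) and 0.011 to 0.24 (other), and in KO from -1.50 to -0.022, -0.54 to -0.025 and -0.41 to -0.032. The median of 1.06 came without control papilloma replicate 1. Col4a5 and Col4a6 then failed the filter, so it covers fewer genes. In GOF the fold change of Col12a1 ran from -0.28 to 0.15, Col14a1 from -0.21 to 0.38, Col6a1 from -0.13 to 1.82, Col6a2 from -0.033 to 2.08, Col6a3 from -0.068 to 2.48 and Loxl3 from -0.31 to 0.87. In KO the ranges were -0.32 to 0.12 for Col12a1, -0.50 to 0.13 for Col16a1, -0.70 to 0.10 for Col18a1, -1.40 to 0.070 for Col1a1, -1.09 to 0.031 for Col4a1, -1.11 to 0.031 for Col4a2, -0.13 to 0.15 for Col4a6, -1.95 to 0.24 for Col5a1 and -2.42 to 0.31 for Col6a3. They were -0.57 to 0.56 for Pcolce2, -1.60 to 0.064 for Loxl1, -2.52 to 0.003 for Lox, -1.63 to 0.18 for Mrc2, -1.02 to 0.015 for Ddr2 and -0.31 to 0.11 for Epcam.

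Leaving out both control replicate 2 arrays together was chosen after seeing the data. It gave 1 collagen in GOF, 0 genes in KO, and 0 collagens and 7 genes for the difference, with 4 collagens lower by the pair rule in GOF and 1 in KO. The basement membrane median was 0.85 in GOF, and the fibrillar and basement membrane medians were -0.022 and -0.025 in KO. In GOF it left Col6a1 at -0.13, Col6a2 at -0.033, Col6a3 at -0.068 and Loxl3 at -0.31. In KO it left Col12a1 at 0.12, Col16a1 at 0.13, Col1a1 at 0.070, Col4a1 and Col4a2 at 0.031, Col5a1 at 0.24, Col6a3 at 0.31, Loxl1 at 0.064, Lox at 0.003, Mrc2 at 0.18 and Ddr2 at 0.015. Beyond the smaller number of arrays and genes tested, the cause of these shifts was not tested.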
